A study of Mus musculus with 19 samples.

Results

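Fatty acid binding proteins are small cytosolic carriers of long-chain fatty acids and other lipids, and 3 of them, Fabp1, Fabp5 and Fabp7, were described across 19 livers of mice given polyethylene particles (PE) or vehicle (Veh) on a control diet (CD) or a MASH diet (MD). They were taken by symbol, 3 of the 55836 genes in the count table, and had been selected on their levels in these same groups, so that their values are a description with no test. The mice were male wild-type C57BL/6, 8 weeks old at procurement. CD held 10 kcal% fat with matching sucrose, whereas MD supplied 2% cholesterol with 40 kcal% from fat and 20 kcal% from fructose, each fed for 8 weeks. All mice were gavaged daily, with 2 mg PE in water containing 0.1% Tween 20 or with that water alone. Poly(A) RNA of whole liver was sequenced from 4 vehicle mice on CD (CD + Veh) and 5 on MD (MD + Veh), and from 5 PE mice on each diet (CD + PE and MD + PE). The comparisons are called PE on CD (CD + PE against CD + Veh), PE on MD (within MD), diet under vehicle (MD + Veh against CD + Veh) and diet under PE (MD + PE against CD + PE). They share groups, each group serving in a PE and a diet comparison, and are not independent. Mice of a group were housed together, and every PE library carries a higher library number than every Veh library, so that cage or library order and treatment cannot be told apart.

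The family members differ mainly in where they are made. Fabp1, liver FABP, is among the most abundant cytosolic proteins of the hepatocyte and a classical target of the nuclear receptor Ppara, which fatty acids activate. Fabp5, epidermal FABP, is found in keratinocytes, macrophages, adipocytes and endothelium. Fabp7, brain FABP, is best known from radial glia and astrocytes and in liver is made by Kupffer cells, the resident macrophages.

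In GENCODE vM39 (GRCm39) the 3 genes lie on different chromosomes. Fabp1 occupies chr6:71176809-71182016 on the plus strand, with 4 exons and a canonical transcript of 564 bases. Fabp5 occupies chr3:10077602-10081674 on the plus strand, with 4 exons and 993 bases. Fabp7 occupies chr10:57660956-57664554 on the plus strand, with 3 exons and 943 bases. Fabp2, Fabp4, Fabp9 and Fabp12 share chromosome 3 with Fabp5, Fabp4 at chr3:10268785-10273737 on the minus strand.

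Promoter sequence is shown for Fabp1 and Fabp7 because Ppara targets and clock genes are among the lists set beside them below. Each is the 250 bases before the gene start in RefSeq (GRCm38.p6), 5′ to 3′ on the plus strand, at chr6:71199629-71199878 and chr10:57784673-57784922. Capitals mark TAGGTCA, a half-site read by ROR and Rev-erb receptors, and, in Fabp1, a direct repeat of AGGNCA and AGGTCA with 1 base between them, the arrangement bound by Ppara with its partner Rxr. Both were searched on both strands, and the half-site of the Fabp1 promoter overlaps its direct repeat. That of Fabp5 is not shown here.
Fabp1: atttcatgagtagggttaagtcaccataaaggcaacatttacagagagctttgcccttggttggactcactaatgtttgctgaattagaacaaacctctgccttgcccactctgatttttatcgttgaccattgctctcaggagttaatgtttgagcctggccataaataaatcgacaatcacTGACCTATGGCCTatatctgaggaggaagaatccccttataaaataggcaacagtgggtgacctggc
Fabp7: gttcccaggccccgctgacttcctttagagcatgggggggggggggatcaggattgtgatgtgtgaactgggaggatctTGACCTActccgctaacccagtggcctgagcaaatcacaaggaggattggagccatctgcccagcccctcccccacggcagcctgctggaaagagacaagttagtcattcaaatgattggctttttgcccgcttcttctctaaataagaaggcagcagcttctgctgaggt

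The capitals of Fabp1 run from base 67 to base 55 before the start and those of Fabp7 from base 171 to base 165, both on the minus strand. Of 32841 promoters of this length, 2.24% held TAGGTCA and 0.0822% held the direct repeat. The Fabp1 promoter also held TATAAA, 30 bases before the start, as did 12.4% of promoters, and the Fabp7 promoter held CCAAT at 2 places, a pentamer in 33.9% of promoters. CACGTG, the E-box of the clock activators, was in neither sequence and in 6.02% of promoters. These letter matches describe the windows and do not show binding.

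Libraries held 10398820 to 15456729 estimated counts, and every PE library was shallower than every vehicle library. Levels are CPM, counts scaled to a common library total with TMM factors, and 13597 genes, all 3 members among them, passed the filter on low counts and were tested. All 10 hepatocyte markers were detected, with a summed level of 57712 to 106241 CPM. Some libraries held RNA of other tissues or cells, and those that touch a result are named beside it.

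The level of Fabp5 differed most between groups. In the 4 CD + Veh libraries it was 403, 229, 265 and 418 CPM, and in the 5 CD + PE libraries 59.6, 119, 40.1, 83.9 and 99.98 CPM. On MD it was 7.04, 10.03, 9.07, 4.57 and 17.4 CPM with vehicle and 5.36, 7.49, 5.65, 7.76 and 4.58 CPM with PE. Every CD + PE library lay below every CD + Veh library and above every MD library, whereas the MD + Veh and MD + PE libraries overlapped. Group means were 329 ± 95.6 (SD, n = 4), 80.5 ± 31.4 (n = 5), 9.62 ± 4.82 (n = 5) and 6.17 ± 1.39 CPM (n = 5) in the order used above. In these bulk samples, fewer cells of a type and less RNA per cell cannot be told apart.

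**Figure D1:**
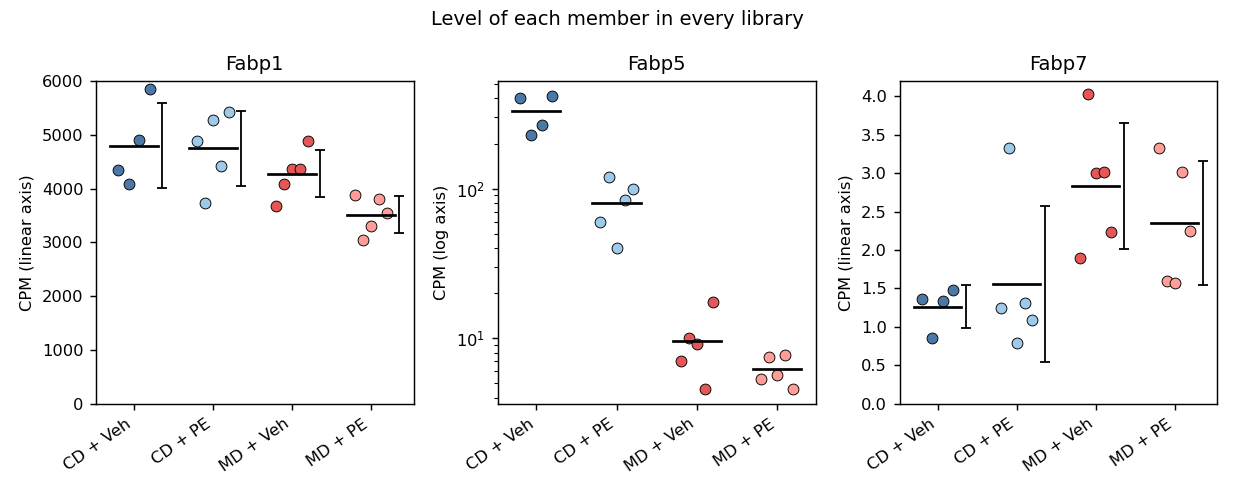
Each point is the CPM of 1 library, with group means as bars, for Fabp1 (linear axis), Fabp5 (log axis) and Fabp7 (linear axis), and error bars of 1 SD on the linear panels. Fabp5 fell into 3 levels that did not overlap, CD + Veh, CD + PE and both MD groups together, while most groups of Fabp1 and of Fabp7 overlapped.

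On the log2 scale of the edgeR fit, Fabp5 was lower by 2.03 (SE 0.305) in CD + PE than in CD + Veh, a 4.08-fold lower level. MD + Veh was 34.2-fold below CD + Veh, a log2 difference of -5.10 (SE 0.350), which was rank 3 from the lowest of the 13597 tested genes. MD + PE was 13.0-fold below CD + PE, at -3.70 (SE 0.337). Within MD the PE groups differed by -0.63 (SE 0.337), and this value became -0.31 without MD + Veh 5, the highest MD library. The PE difference on MD minus that on CD was 1.40 (SE 0.453).

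Fabp1 was the most abundant family member throughout. It measured 4348, 4090.0, 4903 and 5865 CPM in CD + Veh and 4893, 3735, 5286, 4416 and 5425 CPM in CD + PE. In MD + Veh it measured 3682, 4084, 4373, 4371 and 4883 CPM, and in MD + PE 3881, 3054, 3302, 3816 and 3551 CPM. The MD + PE libraries all lay below the CD + Veh libraries but overlapped both CD + PE and MD + Veh, and the other groups overlapped each other. Means were 4802 ± 786, 4751 ± 690.2, 4279 ± 440.5 and 3521 ± 347 CPM (SD), in the same group order and with the same n.

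The differences in Fabp1 were small beside those in Fabp5. CD + PE differed from CD + Veh by -0.02 (SE 0.127) and MD + PE from MD + Veh by -0.28 (SE 0.120) on the log2 scale, and the first value turned to 0.11, 0.06 and 0.02 without CD + Veh 4, CD + PE 2 and CD + PE 4 and to 0.17 with the clock score, described below, as a covariate. MD + Veh differed from CD + Veh by -0.17 (SE 0.127), and MD + PE from CD + PE by -0.43 (SE 0.120), a 1.35-fold lower level. The 10 hepatocyte markers had a median log2 difference of -0.37 for diet under vehicle, with 1 called higher and 3 lower, and of -0.43 for diet under PE, with 4 lower. Over the 19 libraries Fabp1 correlated with the mean of these markers with r = 0.68, and with r = 0.38 after subtracting group means, and their part in its differences was not tested. The PE difference on MD minus that on CD was -0.27 (SE 0.175). With that covariate the difference of MD + Veh from CD + Veh became 0.10.

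Fabp7 was near the limit of what this depth measures, with 9 to 65 counts per library. It measured 1.37, 0.860, 1.34 and 1.48 CPM in CD + Veh and 1.25, 3.33, 0.795, 1.31 and 1.09 CPM in CD + PE. On MD it measured 1.90, 4.03, 3.00, 3.02 and 2.24 CPM with vehicle and 3.33, 1.60, 1.56, 3.02 and 2.24 CPM with PE. Every MD library lay above every CD + Veh library, and 1 library, CD + PE 2, stood apart from the rest of CD + PE at the level of the MD groups. Means were 1.26 ± 0.276 (SD, n = 4), 1.55 ± 1.01 (n = 5), 2.84 ± 0.822 (n = 5) and 2.35 ± 0.807 CPM (n = 5), in the same order. The spread in CD + Veh, 21.8% of the mean, was no larger than the 23.5% that counting error alone gives at these counts, and in CD + PE, at 65.3%, it exceeded the 26.7% of counting error.

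MD + Veh exceeded CD + Veh 2.24-fold in Fabp7, a log2 difference of 1.16 (SE 0.363), and MD + PE exceeded CD + PE by 0.60 (SE 0.344). CD + PE differed from CD + Veh by 0.30 (SE 0.374) and MD + PE from MD + Veh by -0.27 (SE 0.328), with overlapping libraries in both. The PE difference on MD minus that on CD was -0.56 (SE 0.498). Without CD + PE 2 the difference of CD + PE from CD + Veh became -0.19 and that of MD + PE from CD + PE became 1.09. With the clock score as a covariate the difference of MD + Veh from CD + Veh was 0.17.

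**Figure D2:**
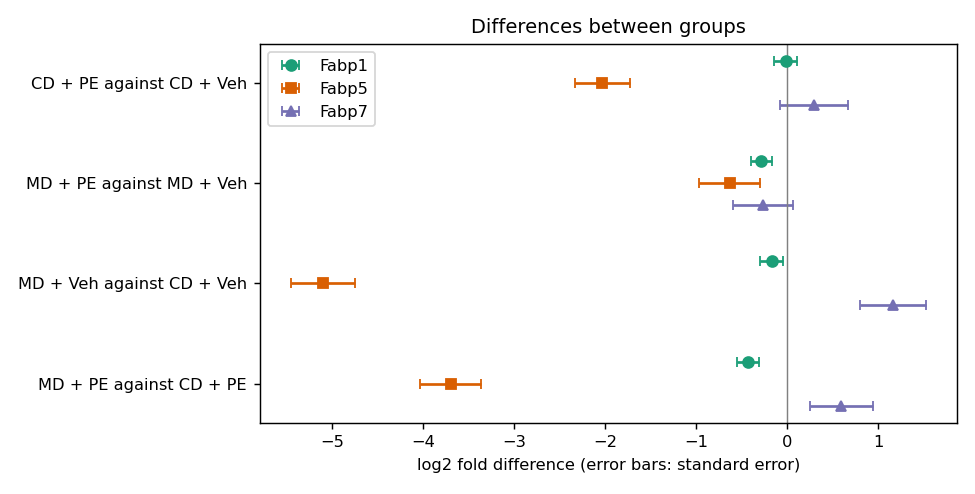
Log2 fold differences of the 3 genes in 4 comparisons, from the edgeR fit over 19 libraries, with bars of 1 standard error. Fabp5 lies left of 0 in all 4 comparisons, from -0.63 to -5.10, Fabp1 between -0.43 and -0.02, and Fabp7 between -0.27 and 1.16.

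By the limits used for calling genes, an adjusted p below 0.05 in edgeR and an absolute log2 difference of at least 0.38, 0 members were higher and 1 was lower for PE on CD, where 1.22% and 1.7% of all tested genes were called higher and lower. For PE on MD 0 and 0 were called, with 0.147% and 0.934% of all tested genes. For diet under vehicle 1 and 1 were called, with 4.74% and 5.63% of all genes. For diet under PE 0 and 2 were called, with 1.69% and 2.92% of all genes. Since the members were selected on these groups, nothing is read from their counts. Per length of transcript, the level of Fabp1 was 28.1 times that of Fabp5 at the median of the CD + Veh libraries, 95.5 times in CD + PE, 849 times in MD + Veh and 1029 times in MD + PE.

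The genes most like Fabp5 over the 19 libraries were Rdh11, a retinol dehydrogenase (r = 0.97), Sqle, squalene epoxidase (r = 0.97), Aldoc, aldolase C (r = 0.97), Cyp51, lanosterol demethylase (r = 0.97), and Fdft1, squalene synthase (r = 0.97), by Pearson's r of log2 CPM. Since the groups differ so widely in Fabp5, these values mostly restate the order of the groups. Rdh11, for example, averaged 112 and 60.1 CPM in CD + Veh and CD + PE and 18.04 and 11.4 CPM in the MD groups, and Sqle 96.3, 35.4, 1.89 and 0.765 CPM in the same order. After each group's mean was subtracted, the genes most like Fabp5 were Rbbp8 (r = 0.83), Idi1, isopentenyl diphosphate isomerase (r = 0.81), Gtpbp3 (r = 0.75), AU020206 (r = 0.75) and Cyp51 (r = 0.74). Within groups, 20 of 22 genes of cholesterol synthesis had a positive r with Fabp5, with a median of 0.51, as had 20 of 24 lipogenic genes, with a median of 0.39. Of 32 Ppara targets, 1 had a positive r with Fabp5, with a median of -0.26. CD + PE 2 was the highest CD + PE library for Fabp5 and for the summed levels of cholesterol synthesis and of lipogenic genes. It was also the highest for Rbbp8, Idi1, AU020206 and Cyp51, though not for Gtpbp3, and no value without it is given. These correlations are over libraries that share depth and group, and are given with no p. No share of positive r over all tested genes is given, so these counts are not shown to be particular to the lists.

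Because of this likeness, genes of cholesterol synthesis and lipogenesis are described beside Fabp5. All 22 listed genes of cholesterol synthesis were tested, and for diet under vehicle 20 were lower and 0 higher, with a median log2 difference of -1.70 against -0.0042 over all tested genes. They were led by Sqle at -5.65 (SE 0.435), Idi1 at -3.34 (SE 0.273), Fdps, farnesyl diphosphate synthase, at -2.89 (SE 0.303), and Nsdhl, a sterol dehydrogenase, at -2.67 (SE 0.177). For diet under PE 21 were lower, with a median of -1.89 against -0.019. Fabp5, at -5.10 and -3.70, thus lay below the median of the list in both diet comparisons.

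For PE on CD 11 of the 22 were lower, with a median of -0.71 against 0.0064 over all genes, and for PE on MD 12 were lower, with a median of -0.85 against -0.012. Sqle fell by 1.45 (SE 0.348, edgeR adjusted p = 0.0251) with PE on CD, and Idi1 fell by 1.24 (SE 0.270, edgeR adjusted p = 0.0271) with PE on MD. The call of Sqle was lost without CD + Veh 1 or 4 or CD + PE 1, 3 or 4, with only the compared groups fitted and with the library division described below, and that of Idi1 without MD + Veh 1 or 2 or MD + PE 3 or 5 and with that division. The difference of Fabp5 with PE, -2.03 on CD, was larger than any of the 22 on CD, and at -0.63 on MD lay closer to 0 than their median. Library numbers up to 45 and from 46 on were also given a term of their own, called the library division. Only MD + Veh held libraries on both sides of it, 1 to 3 before and 4 and 5 after. Every CD + Veh library lay before it and every PE library after it. The term thus rests on MD + Veh alone, and no label names a batch there. With it the counts became 1 on CD and 6 on MD, and the difference of Fabp5 became -2.36 on CD and -0.82 on MD. Without CD + Veh 4 the count on CD was 4, and without CD + PE 3 it was 7.

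Of the 24 lipogenic genes 13 were lower and 0 higher for PE on CD, led by Pnpla3 and Pnpla5, patatin-like lipases, at -3.08 (SE 0.518) and -2.90 (SE 0.605), Thrsp at -2.05 (SE 0.297), Acly, ATP citrate lyase, at -1.82 (SE 0.241), and Elovl6, a fatty acid elongase, at -1.75 (SE 0.252). For PE on MD 13 were lower, and with the library division as a covariate 5 were lower in each PE comparison. The calls of Pnpla3 and Pnpla5 were lost with that covariate, and that of Pnpla5 also with the clock score. DESeq2 gave no adjusted p for Pnpla5 on CD, which averaged 6.31 CPM in CD + Veh and 0.832 CPM in CD + PE. For diet under vehicle 17 were lower and 1 higher, Agpat2 at 0.59, and for diet under PE 14 were lower. Without MD + PE 3 or MD + PE 4 the count for PE on MD was 8, and without MD + PE 3 or MD + PE 5 that for diet under PE was 9. Medians were -1.08 and -0.85 for PE on CD and on MD, and -1.18 and -0.86 for diet under vehicle and under PE.

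**Figure D3:**
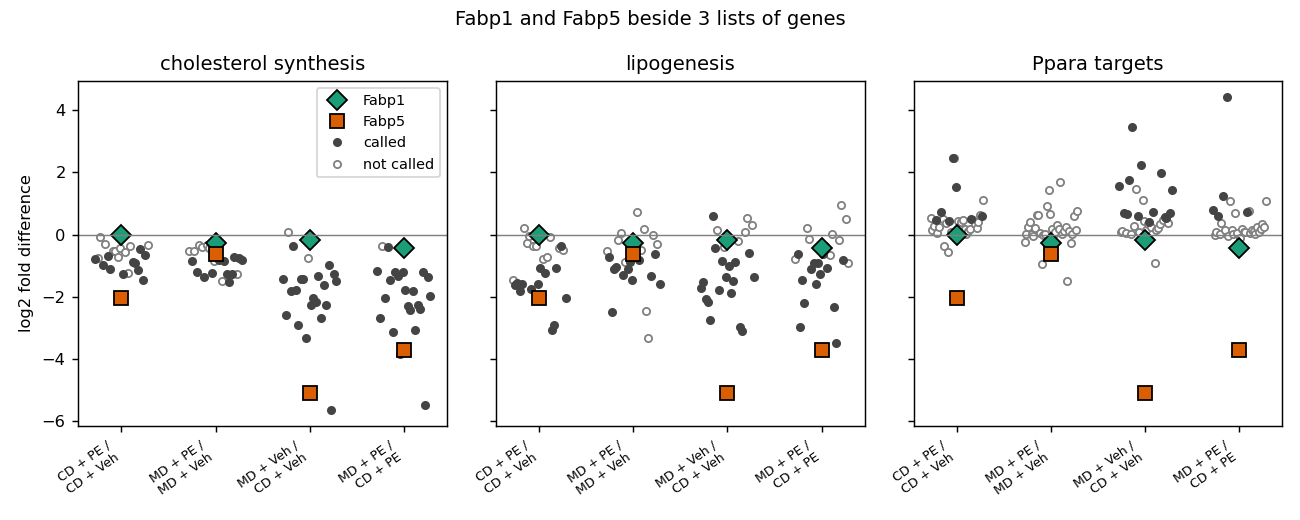
Log2 fold differences of listed genes in 4 comparisons (small points, filled where called) for cholesterol synthesis (22 genes), lipogenesis (24) and Ppara targets (32), with Fabp1 and Fabp5 drawn in each panel. Fabp5 lies below most genes of cholesterol synthesis in the diet comparisons. Called Ppara targets lie above 0, while Fabp1 lies near 0 for PE on CD, at -0.02, and below 0 in the diet comparisons.

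Fabp1 is itself known as a Ppara target, and its difference stood below the median of the other listed targets in all 4 comparisons. Of 32 other targets, 14 were higher and 0 lower for diet under vehicle, with a median log2 difference of 0.44 against -0.0042 over all genes. They were led by Cidec, a lipid droplet protein, at 3.45 (SE 0.529), Cyp4a10, a fatty acid hydroxylase, at 2.24 (SE 0.557), and Pdk4, a kinase that restrains glucose oxidation, at 1.98 (SE 0.611). The call of Pdk4 was lost without any 1 of the 4 CD + Veh libraries or MD + Veh 1 or 2 and under several alternatives, and the calls of all 3 were lost with the clock score as a covariate. For PE on CD 7 were higher, with a median of 0.41 against 0.0064, among them Cyp4a10 at 2.45 (SE 0.562), Cyp4a31 at 1.54 (SE 0.384), Aldh3a2 at 0.73 (SE 0.172), Slc25a20 at 0.59 (SE 0.122), Acadm at 0.48 (SE 0.127) and Cpt2 at 0.44 (SE 0.0994). This count was 0 with the library division as a covariate, 1 when only the compared groups were fitted, and 1, 3, 2, 1 and 4 without CD + Veh 1, CD + Veh 2, CD + Veh 3, CD + PE 3 and CD + PE 5. It was 11 in DESeq2. For diet under vehicle the count was 9 without CD + Veh 1.

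For diet under PE 5 targets were higher, and for PE on MD edgeR called 0, with 6 at an unadjusted p below 0.05 and 1 called by DESeq2. The difference of Fabp1, -0.43 and -0.28, was below the list's median of 0.15 and 0.13 in these comparisons. Within groups, 31 of 32 targets had a positive r with Fabp1, with a median of 0.51 and the highest for Acadvl at 0.77. Among mice of a group Fabp1 was thus higher where most targets were higher, while between groups its difference lay below their median. The share of positive r over all tested genes is not given, so this count is not shown to be particular to the targets. CD + PE 2 held the lowest Fabp1 of its group, 3735 CPM, and no value of these correlations without it is given.

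The genes most like Fabp1 over the 19 libraries were subunits or partners of the respiratory chain and inner mitochondrial membrane, Atp5mc3 (r = 0.89), Cox7c (r = 0.89), Uqcr11 (r = 0.88), Chchd3 (r = 0.87) and Tmem11 (r = 0.85). After subtracting group means they were Cox7c (r = 0.86), Sem1 (r = 0.83), Ddrgk1 (r = 0.81), Atp5mc3 (r = 0.81) and Btf3 (r = 0.80). Each of these, like Fabp1, was lowest of its group in CD + PE 2, and no value without that library is given. Cox7c, a subunit of cytochrome c oxidase, averaged 152 and 154 CPM in CD + Veh and CD + PE and 138 and 131 CPM in MD + Veh and MD + PE, the same order as Fabp1 apart from the CD groups.

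Fabp7 varied with macrophage genes. The 5 most alike over the 19 libraries were Cd68, a lysosomal protein of macrophages (r = 0.94), Nckap1l, an actin regulator of blood cells (r = 0.94), Cd5l, secreted by Kupffer cells (r = 0.94), Hmox1, heme oxygenase (r = 0.93), and Clec1b, a lectin (r = 0.91). The same 5 genes headed the list after group means were subtracted, with r from 0.88 to 0.90. Without CD + PE 2, 4 of the 5 stayed among the most alike over 18 libraries, and Clec1b ranked 6, with r = 0.90. After group means were subtracted from these 18 libraries, the 5 genes had r from 0.78 to 0.85, and Nckap1l ranked 8.

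The summed level of the 12 Kupffer cell markers was 171 to 294 CPM in CD + Veh, 353 to 496 CPM in MD + Veh and 271 to 468 CPM in MD + PE. In CD + PE it was 142 to 198 CPM in 4 libraries and 994 CPM in CD + PE 2, the library with 3.33 CPM of Fabp7. Cd68 was 18.9 CPM and Cd5l 166 CPM in that library, against at most 3.72 and 32.8 CPM in the other CD + PE libraries. By edgeR 0 of the 12 markers passed in any of the 4 comparisons, with 1, 0, 1 and 0 at an unadjusted p below 0.05. Their median log2 difference was 0.70 for diet under vehicle, where that of Fabp7 was 1.16. The 12 markers of lipid-associated macrophages, Cd68 among them, had a median of 1.18 for diet under vehicle, with 3 higher and 1 lower, and of 1.29 for diet under PE, with 3 higher. Fabp7 correlated with their mean with r = 0.70 over 19 libraries and with r = 0.44 after subtracting group means.

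Set against the summed markers, Fabp7 ranged from 0.456 to 0.506 CPM per 100 CPM in CD + Veh, from 0.335 to 0.763 in CD + PE, from 0.538 to 0.881 in MD + Veh and from 0.506 to 0.940 in MD + PE. The MD + Veh libraries lay above the CD + Veh libraries on this ratio too, by a narrow margin at these counts. Over 19 libraries and after subtracting group means, Fabp7 correlated with the mean log2 level of the markers with r = 0.72, and without CD + PE 2 with r = 0.36. The part of these cells in the differences of Fabp7 was not tested.

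**Figure D4:**
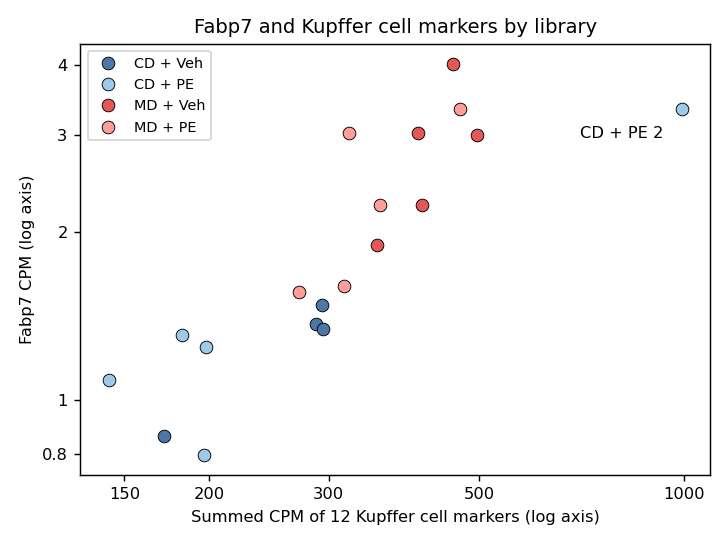
Each point is 1 library, with the summed CPM of 12 Kupffer cell markers on the horizontal axis and the CPM of Fabp7 on the vertical axis, both on log axes. Most MD libraries lie above and to the right of the CD libraries, MD + Veh 2 is highest at 4.03 CPM, and CD + PE 2 lies far to the right at 994 and 3.33 CPM.

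The clock score, the mean log2 CPM of 5 clock genes high around Bmal1 minus that of 7 genes in opposite phase, moved with the same groups. It ranged from -4.40 to -3.02 in CD + Veh, from -2.95 to -1.58 in 4 libraries of CD + PE with 0.55 in CD + PE 2, from -2.11 to -0.19 in MD + Veh and from -1.95 to -0.07 in MD + PE. Of 17 clock genes, 5 were higher and 5 lower for diet under vehicle, led by Npas2 at 3.60 (SE 0.765) and Bmal1 at 2.15 (SE 0.398), and 2, Bmal1 at 1.60 (SE 0.400) and Clock at 0.63 (SE 0.139), were higher for PE on CD. The latter count was 0 without CD + Veh 1 or CD + Veh 4 and 1 without CD + Veh 2 or CD + PE 2. For PE on MD and diet under PE edgeR and DESeq2 each called 0, with 1 and 2 at an unadjusted p below 0.05. The clock score cannot be told apart from diet in the vehicle groups, or from PE in the CD groups. Its values overlap in neither comparison.

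Of the other rows named Fabp, Fabp2, Fabp3 and Fabp4 were tested, Fabp12 and the pseudogene Fabp3-ps1 held at most 2 and 3 counts in any library, and Fabp6, Fabp9 and the pseudogene Fabp5l2 were at 0 in all 19. Salmon shares reads among transcripts alike in sequence, so that counts of a gene and of its processed copies are not fully separate. Per kilobase of transcript, Fabp5 followed Fabp1 in CD + Veh, at 331 against 8513 CPM per kb, ahead of Fabp2 at 55.9, Fabp4 at 5.26 and Fabp7 at 1.34. In MD + PE the order was Fabp1 at 6243, Fabp2 at 115, Fabp4 at 12.8, Fabp5 at 6.21 and Fabp7 at 2.49 CPM per kb.

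Fabp2, intestinal FABP, took the opposite course to Fabp5. It measured 42.6, 47.4, 59.0 and 66.6 CPM in CD + Veh and 60.5, 68.7, 75.7, 55.3 and 77.0 CPM in CD + PE. On MD it measured 108, 120, 121, 117 and 104 CPM with vehicle and 108, 118, 97.8, 117 and 113 CPM with PE. All MD libraries exceeded all CD libraries. It rose by 1.08 (SE 0.119) for diet under vehicle (edgeR adjusted p = 7.56e-06) and by 0.72 (SE 0.111) for diet under PE (adjusted p = 0.000439). The PE differences, 0.32 (SE 0.118) on CD and -0.04 (SE 0.109) on MD, did not pass. The 12 intestinal markers summed to 8.66 to 28.7 CPM in 18 libraries and to 269 CPM in MD + PE 2, where Fabp2 was 118 CPM, within the range of MD.

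**Figure D5:**
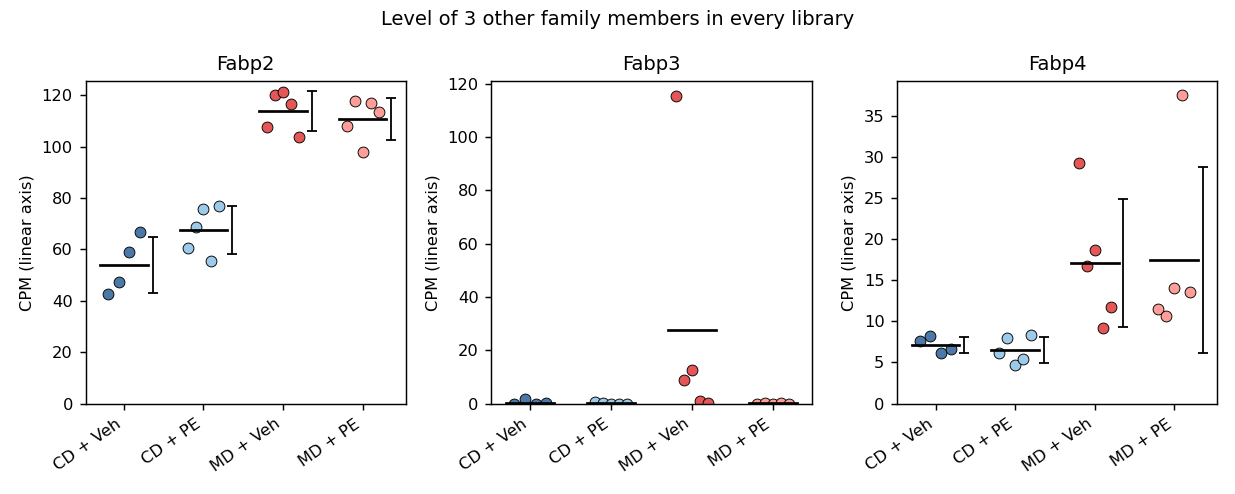
Each point is the CPM of 1 library for Fabp2, Fabp3 and Fabp4 on linear axes, with group means as bars and, for Fabp2 and Fabp4, error bars of 1 SD. All MD libraries of Fabp2 lie above all CD libraries, whereas Fabp3 is high in 1 library of MD + Veh and Fabp4 in 1 library of MD + PE.

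Fabp4, the adipocyte and macrophage FABP, was 6.17 to 8.24 CPM in CD + Veh and 4.68 to 8.30 CPM in CD + PE. It was 29.2, 16.8, 18.6, 9.21 and 11.7 CPM in MD + Veh and 11.5, 10.6, 14.1, 37.6 and 13.6 CPM in MD + PE. All MD libraries exceeded all CD libraries. It was higher by 1.26 (SE 0.357) in MD + Veh (edgeR adjusted p = 0.0231) and by 1.43 (SE 0.341) in MD + PE (adjusted p = 0.0152), each against CD with the same gavage. Of 6 tested adipose tissue markers 4 were called higher for diet under vehicle (median 0.97) and 2 for diet under PE (median 0.42), and of the 12 markers of lipid-associated macrophages 3 were higher in each (medians 1.18 and 1.29). The first difference of Fabp4 lost its call without CD + Veh 1, 3 or 4 or MD + Veh 1, with adjusted p from edgeR of 0.0516, 0.0654, 0.0643 and 0.0639, and with the clock score (adjusted p = 0.355), and the second became 0.94 without MD + PE 4 (adjusted p = 0.0390). MD + Veh 1 held the highest level of its group also for the 12 markers of lipid-associated macrophages, 601 CPM. In MD + PE 4 these markers summed to 659 CPM against at most 408 CPM in the rest of its group, and the 10 markers of gallbladder and duct epithelium to 762 CPM against at most 594 CPM. Krt8 had the highest mean level of the duct list, which shares Spp1 with the macrophage list. Its sum thus does not measure duct epithelium alone. Stellate cell markers were also highest of the group in MD + Veh 1 and MD + PE 4, at 585 and 514 CPM. The summed adipose tissue markers were lowest of the group there, at 3147 and 2800 CPM. Car3 had the highest mean level of that list, and the authors used it as a marker of central hepatocytes. This sum thus does not measure adipose tissue alone. MD + Veh 1 held 4605 CPM of skeletal muscle markers. The part of any of these cells in Fabp4 was not tested.

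Fabp3, the heart and skeletal muscle FABP, was 115, 9.04, 12.5, 1.01 and 0.0772 CPM in MD + Veh and at most 1.65 CPM elsewhere. The 14 skeletal muscle markers followed it in MD + Veh, with 4605, 291, 176, 23.0 and 3.94 CPM, and their part in its level was not tested. Fabp3 was called higher for diet under vehicle (log2 6.05, SE 1.44, edgeR adjusted p = 0.00785) and lower for PE on MD (-8.02, SE 1.61, adjusted p = 0.0156). MD + PE held 0 to 5 counts per library, so that the fitted size depends on the prior count and is no bound. Without MD + Veh 1 these became 3.77 (edgeR adjusted p = 0.0437) and -5.75 (adjusted p = 0.0508). With the library division the second was -2.37 (edgeR adjusted p = 0.772) and without MD + PE 3 it was -7.75 (adjusted p = 0.0591), and with the clock score the first was 3.13 (adjusted p = 0.748). The values of Fabp5 and Fabp7 in MD + Veh 1, 7.04 and 1.90 CPM, lay within the range of the other MD libraries, that of Fabp7 being the lowest of its group. Of 13 other lipid binding proteins 4 were tested, Fabp3 having passed the filter through MD + Veh. Of these, 3 were higher for diet under vehicle, 2 higher for diet under PE and 1 lower for PE on MD. For PE on CD edgeR and DESeq2 each called 0 of the 4, with 1 at an unadjusted p below 0.05.

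Beside the carriers, 26 of 28 genes listed under fatty acid uptake and activation were tested. They are called uptake genes below, though the list also holds thioesterases and acyl-CoA binding proteins. For diet under vehicle 6 were higher and 2 lower, led by Lpl, lipoprotein lipase, at 2.42 (SE 0.407), Cd36, a fatty acid translocase, at 2.28 (SE 0.355), and Acot1, a thioesterase, at 1.39 (SE 0.349). The calls of Lpl and Cd36 were lost with the clock score. For diet under PE Cd36 was higher by 1.69 (SE 0.320), and Acsl5, an acyl-CoA synthetase, and Dbi, the acyl-CoA binding protein, stood at -0.79 and -0.69. With PE on CD 3 were lower, Acsl5 at -0.75 (SE 0.111), Acsl4 at -0.66 (SE 0.177) and Acot7 at -0.56 (SE 0.0913), and on MD 2 were lower, Acsl5 at -0.71 (SE 0.106) and Dbi at -0.56 (SE 0.0778). With the library division as a covariate these counts of lower genes became 0 and 1, and the call of Acsl4 on CD was kept in 8 of the 19 fits that left out 1 library. Dbi stood at -0.06 (SE 0.0821) with PE on CD, and the difference between diets, -0.50 (SE 0.113), had an adjusted p of 0.216 by edgeR. Medians of the list were 0.16, -0.05, 0.18 and 0.01 for PE on CD, PE on MD, diet under vehicle and diet under PE.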

How the data were processed

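Livers of 19 mice were profiled by poly(A) RNA-seq, 1 library per mouse. The authors trimmed reads with fastp 0.23.4 and quantified them with Salmon 1.10.3 (versions from the submitters' processing notes) on GENCODE transcripts (GRCm39), and tximport gave gene totals. The deposited values are the authors' estimated counts, stored as whole numbers without normalization. Groups came from the treatment labels. Fits used R 4.3.3 and edgeR 4.0.16 with TMM, filterByExpr and a quasi-likelihood F test over all 19 libraries with 1 coefficient per group, and p-values were adjusted by Benjamini-Hochberg over 13597 genes. SE was the fitted log2 difference over the root of F. Likeness used log2 CPM with a prior count of 2. No pair of libraries of a group held copies, since over 36 pairs squared differences were 11.2 to 85.5 times counting error. Depth, 10398820 to 15456729 counts, limits the precision most for Fabp7.

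The members and gene lists were chosen with earlier results of these data known, and motifs after the sequences were seen. Named genes are the members, all rows named Fabp, the called genes of a list with the largest difference in a comparison (at most 6, with Cpt2 and Agpat2 added after their values were seen), the 5 most alike genes averaging 5 CPM or more, and genes that mark a library standing apart. Alternatives were RLE normalization, DESeq2 1.42.0, no or a stricter count filter, no fold minimum, robust dispersion, fitting the compared groups alone, the replicate number as a block, the library division or the clock score as a covariate, thinned counts, Spearman's rho for likeness, and leaving out each library. Values without CD + PE 2 for likeness and Kupffer markers were added after seeing the data. The computations were checked on simulated counts with known changes. Some listed genes are not reported here by name.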

Additional observations from a re-analysis of the deposited data

Results flagged for a closer look

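Among 24 sets of library values (6 genes in 4 groups), 6 had a highest library further from the next than Dixon's limit allows. Chance gives about 1 in 20 where values are spread normally. Fabp3, at 0 counts in libraries of CD + Veh, CD + PE and MD + PE, is not, so that rate does not apply to it. Fabp7 was 3.33 CPM in CD + PE 2 against 1.31 CPM in the next library, and the Kupffer cell and red blood cell markers were highest of the group in that library, at 994 and 443 CPM. Fabp3 was 1.65 CPM in CD + Veh 2, 0.498 CPM in CD + PE 1, 115 CPM in MD + Veh 1 and 0.343 CPM in MD + PE 4, against 0.0674, 0.0877, 12.5 and 0.0842 CPM in the next libraries. The skeletal muscle markers were highest of the group in the first 3 of these, at 57.7, 544 and 4605 CPM, and in MD + PE 4 Fabp3 rested on 5 counts. Fabp4 was 37.6 CPM in MD + PE 4 against 14.1 CPM in the next library, where the markers of lipid-associated macrophages were also highest of the group at 659 CPM. Fabp1, Fabp5 and Fabp2 had no such library in any group.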

How the results depend on the processing

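The differences of Fabp1, Fabp5 and Fabp7 kept within 1 replicate SD of the reported value under the alternatives run, except with the clock score as a covariate, where Fabp1 became 0.10 and Fabp7 0.17 for diet under vehicle and Fabp7 became -0.51 for PE on CD. The sign of Fabp1 for PE on CD, a value near 0, was kept in 25 of 29 alternatives. The cause was not tested. The counts of called genes moved more. The library division as a covariate rests on MD + Veh alone. With it, cholesterol synthesis had 1 gene lower for PE on CD and 6 for PE on MD, lipogenesis 5 and 5, and uptake genes 0 and 1. Other lipid binding proteins had 0 lower for PE on MD. Ppara targets and clock genes each had 0 higher for PE on CD, and uptake genes 2 higher for diet under PE. With the clock score, cholesterol synthesis had 4 lower for PE on CD, uptake genes 1 and clock genes 0 higher for PE on CD. For diet under vehicle it left lipogenesis 0 higher and 11 lower, Ppara targets 8 higher, and uptake genes 3 higher and 1 lower. There it also left other lipid binding proteins 1 higher and clock genes 0 higher and 0 lower. The score is itself made from genes of the clock list, so the loss of their calls with it was fixed in advance and is no result. DESeq2 called 11 Ppara targets and 2 uptake genes higher for PE on CD, 1 Ppara target higher for PE on MD and 2 uptake genes higher for diet under PE. Fitting the compared groups alone gave 1 Ppara target and 0 clock genes higher for PE on CD, 0 other lipid binding proteins lower for PE on MD and 2 uptake genes higher for diet under PE. No fold minimum gave 2 of these uptake genes too, and the stricter filter, which dropped Fabp3, 0 lower other lipid binding proteins for PE on MD.

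With each library left out in turn, counts for PE on CD ran from 1 to 10 for Ppara targets higher, 4 to 13 for cholesterol synthesis lower, 0 to 3 for clock genes higher and 0 to 1 for uptake genes higher. For PE on MD lipogenesis lower ran from 8 to 15 and other lipid binding proteins lower from 0 to 1. For diet under vehicle Ppara targets higher ran from 9 to 15 and clock genes lower from 1 to 7, reaching 3, 2, 1, 2, 1 and 1 without CD + Veh 1, 2 or 4 or MD + Veh 1, 2 or 3. For diet under PE lipogenesis lower ran from 9 to 15, lipogenesis higher from 0 to 1, uptake genes higher from 1 to 2, clock genes lower from 0 to 2 and other lipid binding proteins lower from 0 to 1.

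Over 27 same-numbered pairs of libraries from different groups, the median correlation of deviations was 0.0293, and 6 exceeded 0.1. Pairs with different numbers were not set beside them, so whether replicate numbers pair the libraries was not tested. With the replicate block, Fabp5 was -0.58 for PE on MD and -5.25 for diet under vehicle. The block gave 4 Ppara targets higher and 3 clock genes lower for PE on CD, 8 clock genes lower for diet under vehicle, and 2 lipogenic and 2 uptake genes higher for diet under PE. For likeness, Spearman's rho kept 3 of the 5 genes for Fabp1 and 3 for Fabp7. Depth limits Fabp7, at 9 to 65 counts, and housing and library order cannot be told apart from treatment.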
